A study of Drosophila melanogaster with 4 samples.

Results

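Isolated H3K4me3 regions are enriched regions of the combined list, the one that the authors deposited for both replicates together, with at least 10000 bases on both sides that hold no other enriched region of that list. They were selected by position and width from the combined list alone, and 308 of them had a called region of replicate 1 within 10000 bases. A region had to be under 5000 bases wide, and both gaps to its neighbours had to reach 10000 bases. It also had to lie on 2L with a start up to 21011544, on 3L with a start up to 22543557, or on 3R with an end beyond 2000000, which leaves out the 2000000 bases next to each centromere. Of the 5539 enriched regions of the combined list, 3139 lay on these 3 stretches, 2766 of them were under 5000 bases, and 558 were isolated. Of the other 2208, 1165 had an open gap on 1 side, 1041 had none, and 2 lacked a neighbour at an end of the sequence. A further 55 regions had both gaps but were at least 5000 bases wide.

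Methylation of lysine 4 on histone H3 is laid down by methyltransferases of the COMPASS family, which in Drosophila are Set1, Trithorax and Trithorax-related. The trimethylated form is known from the nucleosomes just downstream of active transcription start sites, where chromatin remodellers and general transcription factors can bind it. In the compact fly genome many promoters lie close together or face each other, so regions with the mark often follow each other closely, while sparse stretches are known for long genes and long intergenic sequence.

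The samples were whole embryos of Drosophila melanogaster of the wild-type Oregon-R strain, staged at 14 to 16 h, late in embryogenesis, and fixed with 1.8% formaldehyde. The 2 ChIP samples were precipitated with a commercial antibody to H3K4me3 (lot 2), and the 2 Input samples of the same strain, genotype and stage were chromatin without precipitation. The ChIP replicates have a list each, with 9260 enriched regions in replicate 1 and 4959 in replicate 2. No list of the Input samples was used. They served as input for the calls per the labels, the one numbered 2 for ChIP replicate 1 and the one numbered 1 for ChIP replicate 2, and separate embryo collections for the replicates are not named in the labels. In whole embryos, a mark present in few cells and a mark weak in all cells cannot be told apart. Positions are on FlyBase release 5. No genome sequence or gene annotation of that release was used here, so sequences, genes, exons and introns at these positions are not given. The authors' score per region has no stated scale and is compared as differences and ranks only, and the depth of the libraries is unknown. All measures below come from the calls that chose the regions or from the samples behind them, so the comparisons are descriptions with no test. Regions are not replicates of a condition, and the 95% Wilson intervals cover counting error only.

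The isolated regions were spread over all 3 arms. 2L held 165 of them (7.85 per Mb), 3L held 193 (8.56 per Mb) and 3R held 200 (7.72 per Mb). As a share of all regions under 5000 bases, this was 20.6% on 2L (interval 17.9% to 23.5%), 21.3% on 3L (18.8% to 24.1%) and 18.9% on 3R (16.6% to 21.3%), or 20.2% in all. The intervals of the 3 arms overlap. Together the isolated regions covered 1.45 Mb of the 69.5 Mb of the stretches.

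Along the arms, the number of isolated regions did not follow the number of all regions. Over 68 full bins of 1 Mb the isolated regions numbered 3 to 14 per bin, with a median of 7, and all combined regions numbered 16 to 73, with a median of 43. Across bins the 2 counts had a Spearman rho of -0.18, as a description of bins that share the same list. The bin richest in isolated regions was on 3L from 20000001 to 21000000, where 14 of 49 regions were isolated. The poorest was on 3R from 14000001 to 15000000, with 3 of 46. In 2 bins 50.0% of the regions were isolated, on 2L from 14000001 to 15000000 (10 of 20) and on 3L from 10000001 to 11000000 (8 of 16). Both are bins with few regions, where the rule is more easily met.

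The stretches were also cut into bins of 10% of their length. On 3L the bin at the telomere side had 5.32 isolated regions per Mb and the bin at the centromere side 11.1 per Mb, while all regions numbered 60.8 and 50.1 per Mb in the same bins. On 2L the bins lay between 5.24 and 9.52 per Mb, and on 3R between 5.40 and 9.65 per Mb, with neither extreme at an end of the stretch. The 3 bins of 2L in which all regions were sparsest (29.0 to 32.8 per Mb) had 7.14 to 9.52 isolated regions per Mb.

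**Figure D1:**
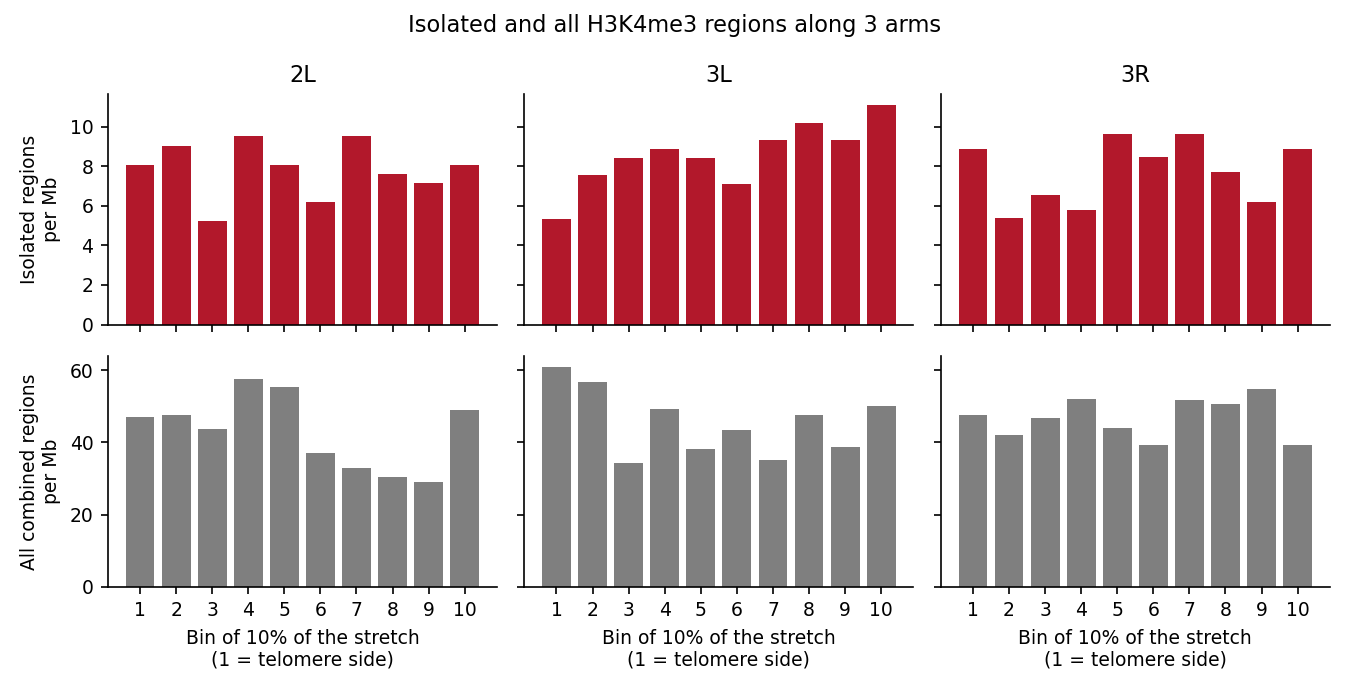
Isolated regions per Mb (top) and all combined regions per Mb (bottom) in bins of 10% of the stretches on 2L, 3L and 3R, counted from the telomere side. On 3L the isolated regions number 5.32 per Mb in the first bin and 11.1 per Mb in the last, and on 2L and 3R no bin is above 9.65 per Mb.

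The sequence without a combined region made up much of the arms, and the gaps in this and the next paragraph are gaps of the combined list, in which replicate 1 may have calls. Of 3138 gaps between neighbouring regions on the stretches, 1279 were at least 10000 bases long (40.8%) and held 52.8 Mb, or 76.1% of the sequence. Isolated regions bordered 865 of these gaps, with 37.8 Mb. The shorter of the gaps beside an isolated region had a median of 19153.5 bases and the longer a median of 50046.5 bases. In 178 isolated regions (31.9%) the longer gap was at least 3 times the shorter. In 59 regions both gaps reached 50000 bases, and in 9 both reached 100000 bases.

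The 5 regions with the largest shorter gap in the combined list lay on 2L and 3L, and all 5 were met by both replicates. In 4 of them replicate 1 had another region within 10000 bases, and the exception was 2L:17962450-17964673. The largest shorter gap was that of 3L:18390277-18392288, with 211039 bases to the next combined region on its left and 221576 on its right. The next regions of replicate 1 were 1480 bases away on the left and 603 on the right. It had a combined score of 0.41, a replicate 1 score of 0.77 and a replicate 2 score of 0.21. Second was 2L:17962450-17964673, which had a shorter gap of 149324 bases, a combined score of 1.49, and scored 0.49 in replicate 1 and 1.86 in replicate 2. The other 3 were 3L:13656531-13660249, 2L:4030488-4034549 and 2L:17259159-17261403, with shorter gaps of 143051, 140810 and 120592 bases and combined scores of 0.58, 1.45 and 0.49. The last of these bordered the longest gap on the stretches, 348247 bases. Over the 558 regions the shorter gap and the score had a Spearman rho of -0.07. The median score was 0.84 in the 196 regions with a shorter gap of 10000 to 15000 bases and 0.61 in the 50 with one of 50000 to 100000 bases. In those sets 65.8% and 66.0% of the regions were met by both replicates.

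Many isolated regions followed each other. They formed 307 runs uninterrupted by another region, of which 168 were a single region, and 390 of the 558 (69.9%) stood in runs of 2 or more. Of the 1116 neighbours on their left and right sides, 502 were isolated themselves (45.0%). Another 499 were other regions under 5000 bases (44.7%), and 115 were at least 5000 bases wide (10.3%). Over all regions of the stretches these shares were 17.8%, 70.3% and 11.9%. By the rule, each long gap counts for the regions on both of its sides, so a neighbour of an isolated region already has a long gap. How far the rule alone gives such runs was not tested.

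The longest runs held 9 regions each and show how unlike such neighbours can be. On 3L the run reached from 14064070 to 14420716, with combined scores of 0.17 to 1.52. Its strongest region, 3L:14064070-14066418, scored 0.34 in replicate 1 and 2.02 in replicate 2. The third, 3L:14168481-14171430, had the higher score in replicate 1, at 1.42, against 1.01 in replicate 2. Of the 9 regions, 5 were met by both replicates. On 3R the run reached from 3091068 to 3714407, and its scores lay between 0.15 and 2.64. The strongest there, 3R:3355564-3358650, scored 1.67 in replicate 1 and 3.03 in replicate 2, while 3R:3463930-3465613, the next in the combined list after a gap of 105279 bases, had a combined score of 0.15 and was met by replicate 2 only.

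Isolated regions had lower scores than the other regions under 5000 bases. Their combined scores ran from 0.018 to 3.20, with a median of 0.81 and quartiles of 0.36 and 1.68, against a median of 1.43 and quartiles of 0.50 and 2.33 in the 2208 others. Closely chained regions, which have a neighbour less than 1000 bases away, had a median of 1.60 (n = 658). Under 0.5 lay 37.3% of isolated and 24.9% of other regions, and at 2 or more lay 17.0% of isolated and 36.3% of other regions. Read the other way, 27.4% of all regions with scores under 0.5 were isolated (interval 24.4% to 30.7%), but 10.3% of those with scores of 2.5 or more (7.82% to 13.4%). The medians of the arms were 0.84 on 2L, 0.90 on 3L and 0.70 on 3R for isolated regions, and 1.39, 1.51 and 1.43 in the same order for the others.

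The size of this difference depended on the replicate. The difference of medians, isolated minus other, was -0.63 for the combined list. With the rule applied to the list of each replicate alone, it was -0.91 in replicate 2 and -0.03 in replicate 1. At the positions met by both replicates, the median score of replicate 2 was 1.61 in isolated and 2.40 in other regions, and that of replicate 1 was 0.73 in isolated and 0.86 in other regions. Whether the scores of the replicates share a scale is not known.

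**Figure D2:**
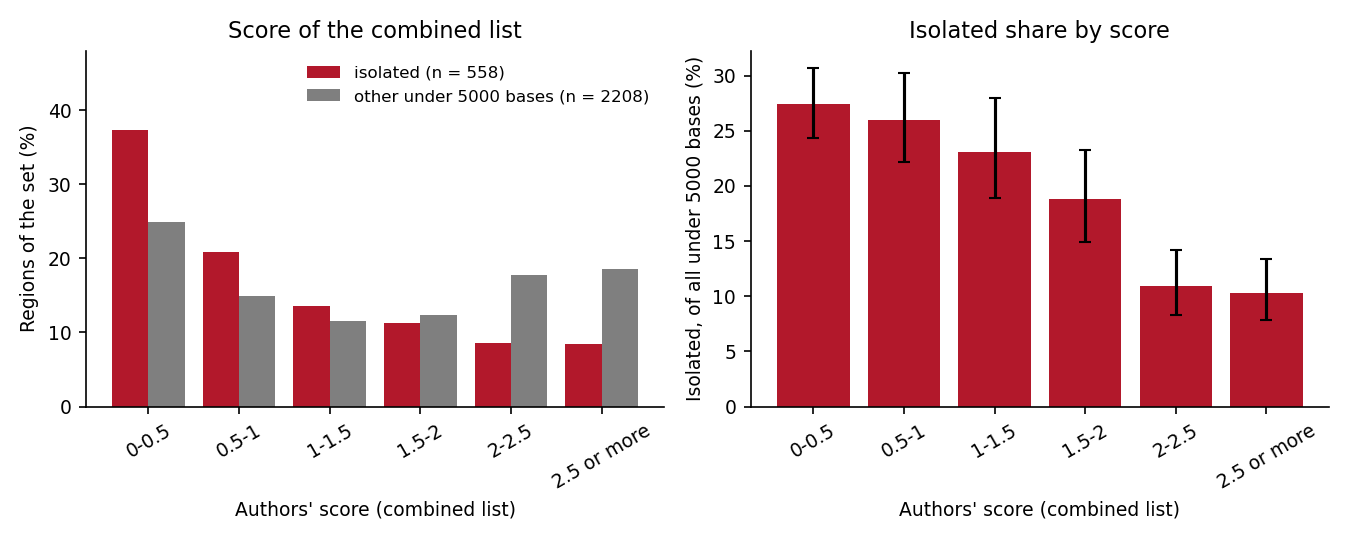
Left, percent of isolated regions (red) and of other regions under 5000 bases (grey) in each band of the authors' score; right, percent of all regions under 5000 bases that were isolated in each band, with 95% Wilson intervals. The lowest band holds 37.3% of the isolated and 24.9% of the other regions, and the isolated share is 27.4% there and 10.3% in the highest band.

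The isolated and the other regions are both limited to widths under 5000 bases. Within that limit the isolated regions had a slightly lower median width. Widths ran from 1001 to 4965 bases, with a median of 2480.5 and quartiles of 1988.2 and 3156.8 bases. The other regions had a median of 2643 and quartiles of 2166.2 and 3447.2 bases. The difference of medians, isolated minus other, was -162.5 bases over the 3 arms, but 15 bases on 2L. Across isolated regions the width and the score had a Spearman rho of 0.79, and across the others a rho of 0.75. The 147 isolated regions of under 2000 bases had a median score of 0.27, and the 54 of 4000 bases or more had a median of 2.01.

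Most isolated regions were found in both replicates. Of the 558, 381 were met by both (68.3%, interval 64.3% to 72.0%), where at least 1 base of overlap counts as met. Replicate 1 alone met 69 (12.4%), replicate 2 alone met 95 (17.0%), and 13 were met by neither (2.33%). Over all 2766 regions under 5000 bases on the stretches, the same shares were 74.6%, 11.6%, 12.0% and 1.74%. In the 2208 others, 76.2% were met by both (74.4% to 77.9%). On 2L the share met by both was 72.1% of isolated and 75.0% of other regions. On 3L these shares were 67.9% and 79.6%, and on 3R 65.5% and 74.2%. If at least 50% of the region had to be covered in each replicate, 65.9% of all isolated regions were met by both. How often the denser calls of replicate 1 would meet a region by position alone was not tested.

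Support went with the score in isolated and in other regions alike. Among scores under 0.5, 66 of 208 isolated regions were met by both replicates (31.7%, interval 25.8% to 38.3%), and 22.0% of the others (18.7% to 25.6%). From 0.5 to 1 the shares were 75.9% of isolated and 76.7% of other regions. From 1 upward, 227 of 234 isolated regions were met by both, and the other 7 by replicate 2 only. All 13 regions met by neither had scores under 0.5, and how far the scores account for the lower share met by both was not tested.

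**Figure D3:**
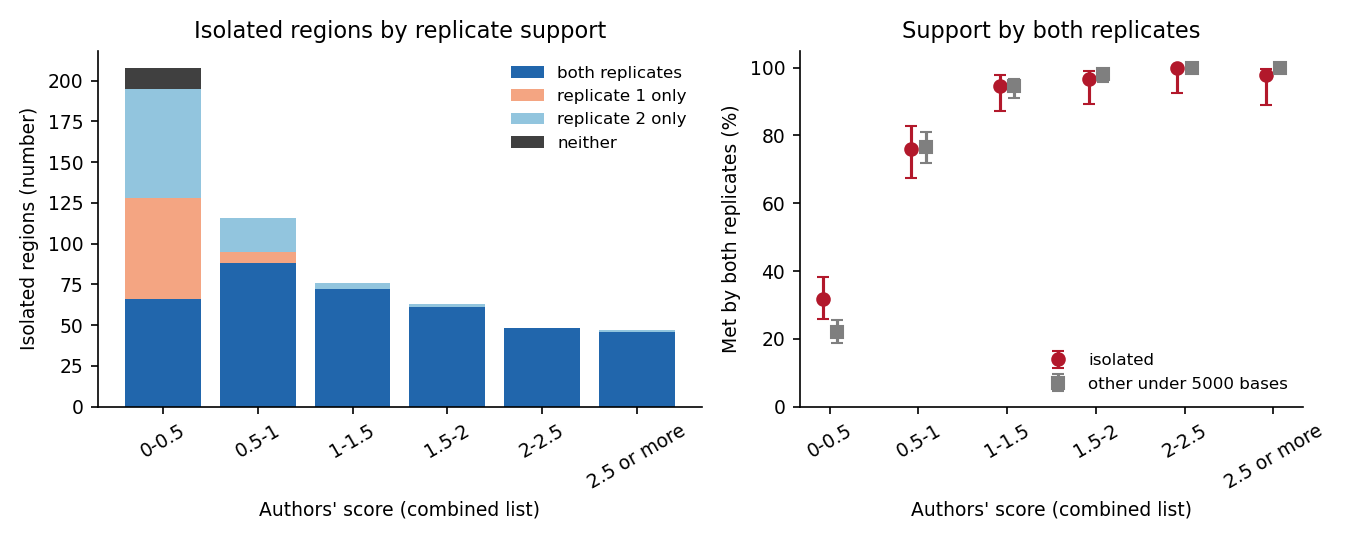
Left, number of isolated regions in each band of the combined score, split by the replicates that met them; right, percent met by both replicates for isolated (red circles) and other regions under 5000 bases (grey squares), with 95% Wilson intervals. In the lowest band 31.7% of isolated and 22.0% of other regions were met by both, and from a score of 1 upward both sets lie at 94.5% or more.

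The regions found in a single replicate were mostly weak and narrow. Where replicate 1 alone met the region, the combined score had a median of 0.31 and the width one of 1452 bases, although the overlapping calls of replicate 1 had a median width of 2672 bases. Where replicate 2 alone did, the medians were 0.34 and 1992 bases, with overlapping calls of 2040 bases in replicate 2. An exception, singled out after its values were seen, was 3R:21807824-21810189, with a combined score of 2.56 and a score of 3.21 in replicate 2. No region of replicate 1 lay within 10000 bases of it, and the nearest was 12633 bases away.

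The 13 isolated regions met by neither replicate had scores of 0.14 to 0.42. The 5 highest were 3R:2125676-2126676 (0.42), 3R:9915536-9916671 (0.36), 3R:16803864-16804909 (0.35), 2L:19606497-19607933 (0.34) and 3L:2399972-2401863 (0.32). Of the 13, 8 were below the lowest width found in the replicates' lists (1301 bases in replicate 1 and 1302 in replicate 2). Among the 381 regions met by both, none was. Among the 69 met by replicate 1 only, 22 were, and among the 95 met by replicate 2 only, 2 were. The regions that were not isolated were not counted in this way. What this lower end of width contributes to these counts was not tested.

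Where both replicates met an isolated region, replicate 2 usually had the higher score. Over the 381 regions the scores of replicate 1 ran from 0.20 to 2.90 with a median of 0.73, and those of replicate 2 from 0.02 to 3.72 with a median of 1.61. Replicate 1 had the lower score in 317 of them (83.2%, interval 79.1% to 86.6%), compared with 91.4% of the others (89.9% to 92.6%). The median difference, replicate 1 minus replicate 2, was -0.80 in isolated and -1.41 in other regions. Spearman's rho of the replicates' scores was 0.58 in isolated (n = 381) and 0.73 in other regions (n = 1682). The combined score followed replicate 2 closely, with a rho of 0.99, and replicate 1 less so, with a rho of 0.66.

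The 5 regions with the largest excess of replicate 2 over replicate 1 are given as a description, since choosing them by that difference favours high scores in replicate 2 and in the combined list. The largest shortfall of replicate 1 was at 2L:12544364-12547574, which scored 0.64 in replicate 1 and 3.29 in replicate 2. It was followed by 3R:25416624-25419431 (0.75 in replicate 1 and 3.28 in replicate 2) and 3L:17660438-17663268 (0.70 and 3.22 in the same order). In 3L:17233544-17236142 and 3L:21167863-21170952 the differences, replicate 1 minus replicate 2, were -2.45 in each. All 5 had combined scores of 2.52 to 2.73.

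The 5 regions in which replicate 1 was furthest above replicate 2 were chosen by that difference. This favours low scores in replicate 2 and in the combined list. Of the 5, 4 were met by a replicate 1 call of over 5000 bases. The largest excess was at 3R:26515411-26518111, with 1.07 in replicate 1 and 0.38 in replicate 2. There replicate 1 called 5619 bases and replicate 2 called 1657. At 2L:15476228-15478921 the scores were 0.98 in replicate 1 and 0.44 in replicate 2, with widths of 21357 and 1976 bases. The remaining 3 of the 5 were 3L:5941988-5944393, 3L:18390277-18392288, which also has the largest shorter gap, and 3R:26569618-26571777, with differences of 0.58, 0.56 and 0.53. Their combined scores lay between 0.41 and 0.63.

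**Figure D4:**
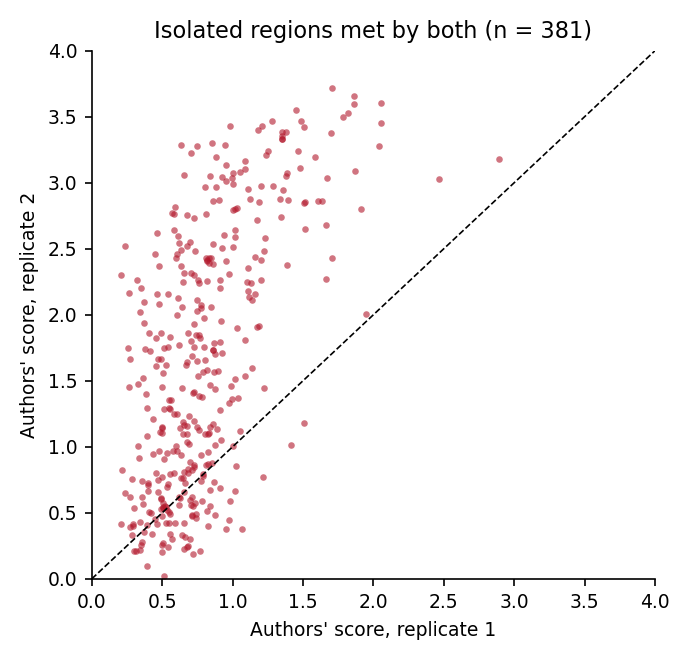
Authors' score in replicate 1 (x axis) and in replicate 2 (y axis) for the 381 isolated regions met by both, 1 point per region, with a dashed line at equal scores. Of the points, 317 lie above the line, and the scores of replicate 1 reach 2.90 where those of replicate 2 reach 3.72.

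The edges of isolated regions were close to those of replicate 2. In replicate 2 the larger offset of the start and the end had a median of 60 bases, and in replicate 1 one of 351 bases, over the 381 regions met by both. Both edges lay within 500 bases in 347 of these regions in replicate 2 (91.1%) and in 238 in replicate 1 (62.5%), compared with 94.6% and 74.0% in the other regions. In replicate 1, 59 of the 450 isolated regions it met were met by a region of at least 5000 bases. For 98 of the 450, the region of replicate 1 reached over 1000 bases beyond their ends, by up to 33608 bases. In replicate 2, neither was so for any of the 476 it met. Among regions met by both replicates, a replicate 1 region wider than 5000 bases met 40 of 381 isolated and 75 of 1682 other regions. A replicate 2 region that wide met none of the isolated and 13 of the other regions. The reach beyond the ends was not counted for the other regions.

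Replicate 2 nearly always lacked other regions around the isolated regions, but replicate 1 mostly did not. In replicate 2, 556 of the 558 isolated regions had no other region within 10000 bases (99.6%, interval 98.7% to 99.9%). In replicate 1, 250 had none (44.8%, 40.7% to 49.0%), 197 had a region on 1 side and 111 on both sides. Regions that met the isolated region are left out of these counts, also where they ran on into its flank. Flanks called empty below may therefore hold such a region. The exceptions in replicate 2 were 3L:20487505-20491938, with another region 635 bases away, and 3R:15672117-15674689, with another 9264 bases away. The rule kept these flanks free of combined regions. In all 59.4 Mb free of them, replicate 2 had 11 regions that met no combined region, so few could fall in the flanks. Over all 2766 regions under 5000 bases, 13.0% had no other region within 10000 bases in replicate 1 and 25.4% had none in replicate 2. Isolated regions were chosen by their gaps, so they differ from these shares partly by construction. The isolated regions with and without a region of replicate 1 beside them had median combined scores of 0.73 (n = 308) and 0.92 (n = 250), and were met by both replicates in 68.2% and 68.4% of cases. The replicate behind the rest differed between these sets. The list of replicate 1 gives both this split and the replicate 1 support, so the shares that follow are tied to the split and only describe it. Replicate 1 alone met 19.2% of those with a replicate 1 region beside them (interval 15.2% to 23.9%) and 4.0% of those without (2.19% to 7.21%). Replicate 2 alone met 34 of the 308 with one (interval 8.01% to 15.0%) and 61 of the 250 without (24.4%, 19.5% to 30.1%).

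The calls of replicate 1 in these flanks that met no combined region were narrow and of low score. Calls that met an isolated region and ran on into its flank are not among them. Within 10000 bases of isolated regions (10.7 Mb in all), replicate 1 had 533 regions that met no combined region, or 49.6 per Mb. In the remaining sequence free of combined regions (48.6 Mb) it had 2124, or 43.7 per Mb. Their scores had a median of 0.53 in the flanks and 0.54 elsewhere, and their widths one of 1856 and 1854 bases. The highest score of such a call in the flanks was 1.09. Replicate 2 had 1 such region in the flanks and 10 elsewhere.

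**Figure D5:**
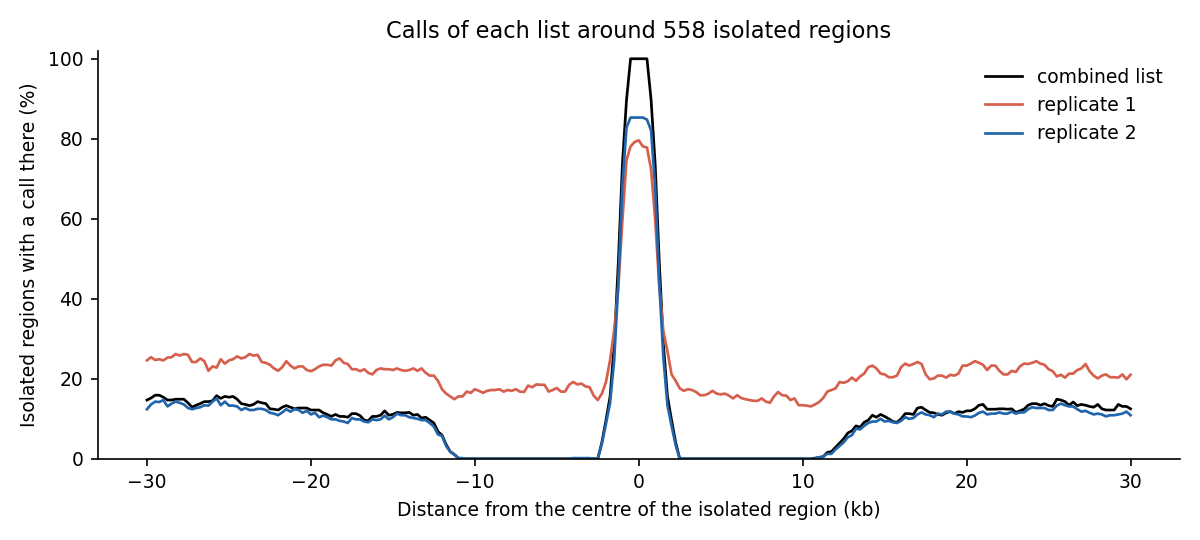
Percent of the 558 isolated regions with a called region at each distance from their centre, in steps of 250 bases to 30 kb on both sides, for the combined list (black), replicate 1 (red) and replicate 2 (blue). Beyond the ends of the isolated regions, the combined list is empty for 10 kb because the rule requires it. In these flanks replicate 2 is nearly empty, while replicate 1 covers 17.7% of the regions at 5 kb to the left and 16.1% at 5 kb to the right.

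When the rule was applied to each replicate's own list, replicate 2 gave 586 isolated regions and replicate 1 gave 443. Those of replicate 2 met 474 of the 558 isolated regions of the combined list (84.9%), which is 80.9% of those of replicate 2. Those of replicate 1 met 171 (30.6%), which is 38.6% of those of replicate 1. Isolated in all 3 lists were 163 regions (29.2%), 44 on 2L, 56 on 3L and 63 on 3R. Their combined score had a median of 1.47 and their width one of 2740 bases, and 54 of them scored 2 or more.

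The strongest isolated regions were present in both replicates with edges that differed little. The highest combined score was that of 3L:20232522-20237275, 3.20 (4754 bases wide), with 1.86 in replicate 1 and 3.66 in replicate 2, where the matching regions were 4706 and 4695 bases wide. The second, 3L:17505172-17509152, scored 3.13, with 1.71 in replicate 1 and 3.72 in replicate 2. The third, 2L:19007410-19010208, had nearly equal scores, with 2.90 in replicate 1 and 3.18 in replicate 2, and a combined score of 3.08. These 3 had no other region of replicate 1 within 10000 bases. The next, which did have one, were 3R:16675358-16678350 (combined score 3.08) and 2L:15112536-15115292 (3.05), which stood between gaps of 36458 and 132777 bases.

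The 5 weakest isolated regions had combined scores close to 0. Each was met by a single replicate, with a higher score there than in the combined list. They were 2L:16049495-16051105, with a combined score of 0.018 and a score of 0.34 in replicate 1, and 3L:21091974-21093557, with 0.037 and a score of 0.093 in replicate 2. The other 3, all on 2L, were 2L:1517381-1518933, 2L:11358630-11360013 and 2L:8983723-8985410, with combined scores of 0.041 to 0.051. Of these, 2L:1517381-1518933 scored 0.875 in replicate 1, above the median of 0.73 that replicate 1 had at positions met by both. In 2L:11358630-11360013 the score was 0.32 in replicate 1, and in 2L:8983723-8985410 it was 0.363 in replicate 2. The first of all, 2L:16049495-16051105, stood between gaps of 277820 and 114569 bases.

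The regions nearest to the limits of the rule, 3 on each side of the gap and width limits and 1 on each side of each stretch limit, had the following values. With shorter gaps of 10011, 10059 and 10062 bases, the regions 3L:2399972-2401863, 3R:17214124-17216294 and 3R:26618996-26620357 were just inside, and their combined scores were 0.32, 0.46 and 0.51. Just outside were 3L:359611-363058, 3L:10177811-10179592 and 3L:21296198-21299331, with gaps of 9957, 9956 and 9941 bases and scores of 3.34, 0.24 and 1.34. By width, the last 3 inside were 4965, 4954 and 4942 bases wide, with scores of 1.82, 2.63 and 2.06. The first 3 outside, with both gaps open, were 5105, 5212 and 5226 bases wide, with scores of 0.80, 2.46 and 1.503. At the limits of the stretches, the last isolated region inside was 2L:20732667-20736854 (score 2.93), 3L:22156387-22157729 (0.30) and 3R:2023719-2026139 (0.89). Beyond the limits, the first that met the other conditions were 2L:21050063-21054196 (1.40), 3L:22765742-22768317 (1.36) and 3R:1980158-1983736 (1.41).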

How the data were processed

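Enriched regions of H3K4me3 ChIP-seq from 2 ChIP replicates, with 2 Input samples as background, were taken as deposited. Bowtie 0.12.7 is named in the submitters' processing notes, and per the file headers the build is release 5 of FlyBase. How regions were called and how the combined list was made: not given in the sources used here. The deposited score per region, made by the authors, is positive for enriched and negative for depleted rows, and its scale is not stated. Depleted rows were set aside. Gaps were counted between neighbouring enriched regions, and a region was met where a replicate's region overlapped it by at least 1 base. Where several did, the score and width of the largest overlap are given. Read counts are not in these lists, so no value could be weighted by depth. The rule, the regions and the lists were chosen with earlier results of these data known. The regions named in the text were taken by rank of score, gap or difference between replicates, or by nearness to a limit of the rule. Alternatives to the gap, the width, the score minimum, the overlap, the list and the arm were tried. The gene table at hand is of release 6 and gave no names or coordinates. The code was checked on simulated lists. Tools were SciPy 1.17.1, pandas 2.3.3, Matplotlib 3.10.9, NumPy 2.4.6 and Python 3.11.15.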

Additional observations from a re-analysis of the deposited data

How the results depend on the processing

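The alternatives gave 91 values for the 10 summary values of the isolated regions, and 55 of these stayed within the 95% interval of the value reported, or within 1.5 times for the count. With a gap of at least 5000 bases there were 1006 isolated regions (36.4% of the regions under 5000 bases) and 63.2% had empty flanks in replicate 1. With 20000 bases there were 265 (9.58%), 27.9% had empty flanks in replicate 1, and the width difference to the other regions was -72 bases. Without the width limit the median score was 0.92, the median width 2569 bases and the width difference -248 bases. For widths under 3000 bases the share was 22.4%, the median score 0.49, the median width 2196.5 bases, the score difference -0.27 and the share met by both 56.8%. With scores of at least 0.5 kept, the share was 24.7%, the median score 1.33, the median width 2833.5 bases, the share met by both 90.1% and the share with empty flanks in replicate 2 83.5%. On 2L the width difference turned to 15 bases, the median width was 2601 bases, the share met by both 72.1%, the difference in that share -2.92 percentage points, and the shares with empty flanks 40.0% in replicate 1 and 100% in replicate 2. On 3R the width difference was -246.5 bases. With the rule applied to the list of replicate 1 or of replicate 2 alone, the share of isolated regions was 8.97% to 23.9%, the median score 0.56 to 1.28, the median width 1941 to 2569.5 bases, the score difference -0.91 to -0.03 and the width difference -244.5 to -152.5 bases. Changed filters, arms and lists hold other regions by construction. Beyond that, the cause was not tested. No paired analysis was possible because no list of the Input group was used here. The unknown depth and score scale limit all score comparisons, and the number of regions limits the precision of each share.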

Other observations

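The combined list has 10 depleted rows, 8 of them on the 3 stretches, and 1 of these lay beside an isolated region. It was 2L:15034995-15036617, with a score of -0.035, 521 bases from 2L:15037139-15041059, an isolated region with a combined score of 2.54.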
